A study of Mus musculus with 15 samples.

Results

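Cd40, Cd80, Cd86, Cd274 and Icosl, 5 costimulatory molecule genes, were followed in 15 ChIP-seq libraries of C10 cells, a HAFTL-derived line of mouse pre-B cells with an inducible, GFP-tagged C/EBPα fusion to the estrogen receptor (C/EBPαER), which turn macrophage-like once the fusion enters the nucleus. Cells were grown with IL-3 and CSF-1 and received 100 nM β-estradiol for 3, 12, 24 or 48 h. The 0 h cells received the ethanol solvent and also carried the fusion, and the labels give the 1 line for all cells. At each of the 5 times 1 library was made for H3K4Me1, 1 for H3K27Ac and 1 for H3K27Me3, so there were no replicates, no test between times could be run, and all intervals below are 95% intervals for counting error only. The genes were taken by name, as 5 of 22342 protein-coding genes with an annotated start on chromosomes 1 to 19 and X. Each was described by the tags in 3 kb centred on its start and in 3 kb windows over the gene and 30 kb on each side, which gave 156 windows: 27 for Cd40, 33 for Cd80, 42 for Cd86, 28 for Cd274 and 26 for Icosl. A window is named by its gene and the distance of its centre from the start, positive in the direction of transcription, as in Cd80 -15 kb.

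T cells that meet antigen respond according to further signals from surface proteins of the presenting cell. CD40 is a receptor on B cells, macrophages and dendritic cells that is engaged by CD40 ligand on helper T cells and signals through TRAF adaptors to NF-kB. CD80 and CD86 are ligands of the activating receptor CD28 and of its inhibitory relative CTLA-4, CD274 (PD-L1) engages the inhibitory receptor PD-1, and ICOSL engages ICOS. H3K27Ac marks active promoters and enhancers. H3K4Me1 marks enhancers and the flanks of promoters and is typically low at the centre of a strongly active promoter, and H3K27Me3 is the mark of Polycomb repression.

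The libraries held 11041458 to 31557475 tags. After 1 tag was kept per position the H3K4Me1 libraries were thinned at random to 10913733 tags each, the H3K27Ac libraries to 15216488 and the H3K27Me3 libraries to 15338280, so tags can be compared between times within a mark, and a mappable 3 kb window of the genome held on average 13.1, 18.3 and 18.4 tags of these marks. A window was called enriched when it held at least 27 tags of H3K4Me1, 34 of H3K27Ac or 34 of H3K27Me3, a count reached with a Poisson probability under 0.001 at the genome mean. A change was called where the higher of the 2 libraries held at least 20 tags and at least 2 times the lower. As a check of the labels, H3K27Ac at the starts of 7 of 7 pre-B cell genes was lower at 48 h than at 0 h (8732 tags summed at 0 h and 2821 at 48 h), and at 7 of 7 macrophage genes it was higher (797 and 2897 tags). From 12 to 48 h 5 of the 7 pre-B cell genes were lower and 1 of the 7 macrophage genes was higher. Of all protein-coding starts, 8.2% were called lower and 4.72% higher in H3K27Ac from 0 to 48 h, and 3.55% lower and 2.16% higher from 12 to 48 h. From 0 to 48 h T cell genes gave no call in 5. Of 5 dendritic cell genes, Itgax (14 tags at 0 h and 174 at 48 h) and Flt3 (13 and 32) were higher, Ccr7 (107 and 26) was lower, and Xcr1 (48 and 80) and Zbtb46 (4 and 3) gave no call. In the H3K27Ac libraries of 0 and 3 h, 523 and 438 positions of a segment of the immunoglobulin heavy chain locus on chromosome 12 held tags, against 0 to 4 in each of the other 13 libraries. These H3K27Ac libraries therefore stand apart, the H3K27Ac calls at 48 h are also described from 12 h below, and the part of this difference in the changes between 3 and 12 h was not tested. Whether these 2 libraries were made from other cells of the line than the rest was not tested either, and in any H3K27Ac ratio of 12, 24 or 48 h against 0 h such a difference cannot be told apart from a change with time. No H3K4Me1 library held more than 2 positions there. In bulk libraries, more cells carrying a mark and more of it per cell cannot be told apart.

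At the start windows, the 5 genes did not move together (the plot of tags at the starts). In H3K27Ac at 48 h against 0 h, 1 of 5 members was called higher (Cd80) and 1 lower (Icosl), where 4.72% of all protein-coding starts were called higher and 8.2% lower. In H3K4Me1, 1 member was higher (Cd86) and 3 were lower (Cd40, Cd80 and Icosl), against 3.36% and 6.83% of all starts. In H3K27Me3 no member was called in either direction, where 1.73% of starts were higher and 1.66% lower. The median log2 ratio of the members was 0.42 in H3K27Ac, -1.04 in H3K4Me1 and 0.00 in H3K27Me3, beside medians of -0.21, -0.30 and 0.04 over all starts with at least 20 tags in the 2 libraries together, a minimum not set for the members. Every later time was set against the same 0 h library, so the ratios at different times are not independent.

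The order of H3K27Ac at the starts at 0 h was Cd274 with 462 tags (421 to 506), Icosl with 285 (253 to 320), Cd80 with 153 (130 to 179), Cd40 with 51 (38 to 67.1) and Cd86 with 5 (1.62 to 11.7). No counting intervals of neighbours in this order overlapped. At 48 h Cd80 had moved to the top with 594 (547 to 644), above Cd274 with 382 (345 to 422), Icosl with 134 (112 to 159), Cd40 with 68 (52.8 to 86.2) and Cd86 with 16 (9.15 to 26), again without overlap between neighbours. Among all protein-coding starts, Cd80 went from percentile 63.8 to 97.2 of H3K27Ac, Icosl from 76.3 to 65, Cd274 from 88.6 to 89.2, Cd40 from 55.4 to 57.3 and Cd86 from 28 to 47.6. For H3K4Me1 at 0 h the order was Cd40 (205 tags), Cd80 (122), Cd274 (71), Icosl (42) and Cd86 (4), of which only the intervals of Cd274 and Icosl overlapped. At 48 h it was Cd40 (100), Cd86 (78), Cd274 (51), Icosl (19) and Cd80 (8), and there the only neighbours whose intervals did not overlap were Cd274 and Icosl.

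**Figure D1:**
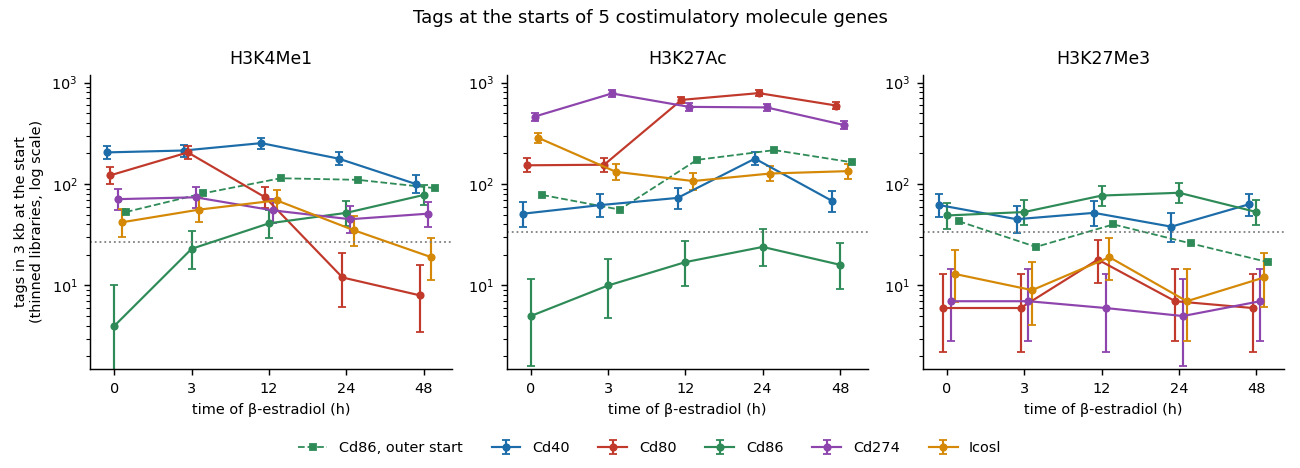
Tags in the 3 kb window at each gene's start (log axis) against the time of β-estradiol in hours, with 1 panel per mark, 1 thinned library per point, exact Poisson 95% intervals as bars, and the enrichment threshold as a dotted line. Cd80 gains H3K27Ac between 3 h (155 tags) and 12 h (675 tags) and its H3K4Me1 falls from 122 tags at 0 h to 8 at 48 h. The dashed line is the outer start of Cd86, drawn without intervals.

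Cd40, on chromosome 2 (mm9, 164881127 to 164898448, forward strand), was the member with the most H3K4Me1 at its start and lay in H3K27Me3 throughout. Its start window held 205, 214, 253, 178 and 100 H3K4Me1 tags at 0, 3, 12, 24 and 48 h. The level stayed high for 24 h and then fell, with a log2 ratio at 48 h against 0 h of -1.04 (-1.40 to -0.68), and it was still at 7.63 times the genome mean. That call just passed the threshold and was not made when libraries were scaled to background bins (-0.26), to bins enriched at all times (-0.98), or with a 6 kb window (-0.89). H3K27Ac at the start was 51, 62, 73, 178 and 68 tags, so that a single library, that of 24 h, stood above the others. The ratio was 1.80 (1.35 to 2.28) at 24 h, a call made for 4.68% of all starts in that direction, and 0.42 (-0.13 to 0.97) at 48 h, which was not called. In the central 1 kb alone the 48 h ratio was 1.04 and was called higher. H3K27Me3 at the start was 62, 45, 52, 38 and 63 tags, above the threshold at each time and without a call.

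The 300 bases before the Cd40 start are shown because they lie at the centre of the H3K4Me1 and H3K27Ac windows just described. They were searched, like the regions below, on both strands for TTGCNNAA (a C/EBP motif), GAGGAAGT (PU.1), CCCNNGGG (EBF), TGANTCA (AP-1) and the NF-kB consensus, whose degenerate form was chosen after values were seen, and matches are in capitals. The Cd40 sequence held 1 match, to the NF-kB consensus, which 4.99% of all promoters of this length hold. It runs 5′ to 3′ on the forward strand (mm9, chr2:164880827-164881126).
Cd40 promoter: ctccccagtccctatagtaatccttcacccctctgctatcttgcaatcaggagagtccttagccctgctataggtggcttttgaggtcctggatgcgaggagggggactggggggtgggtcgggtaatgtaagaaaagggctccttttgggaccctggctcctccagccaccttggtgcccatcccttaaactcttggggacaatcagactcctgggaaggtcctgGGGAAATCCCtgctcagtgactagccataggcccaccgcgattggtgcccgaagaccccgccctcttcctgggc

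Across the Cd40 locus, H3K27Me3 was enriched in 13, 14, 13, 15 and 14 of 27 windows at the 5 times, which at 0 h formed a continuous run from Cd40 -18 kb to Cd40 +18 kb. Of windows within 30 kb of a protein-coding gene, 17.4% were enriched in H3K27Me3 at 0 h and 19.2% at 48 h. The level of H3K27Me3 in the locus was highest upstream, where Cd40 -15 kb held 80, 85, 106, 94 and 115 tags. H3K27Ac was enriched in 2 windows at each time. One was the start and the other was Cd40 -21 kb, the start of the neighbouring Ncoa5, with 160, 208, 170, 141 and 162 tags, a level that gave no call at 48 h. Cd40 -12 kb and Cd40 -30 kb alone were called higher in H3K27Ac at 48 h, 7.41% of the locus, where 9.5% of windows near protein-coding genes were. Cd40 -12 kb held 3, 8, 13, 10 and 30 tags, a log2 ratio of 3.32 (1.64 to 5.68), and neither of these windows reached the enrichment threshold at any time. From 12 h, Cd40 -12 kb was also called higher and Cd40 -30 kb was not. Cd40 -12 kb held 79 to 125 H3K27Me3 tags throughout. A further peak of H3K4Me1 lay inside the gene at Cd40 +6 kb with 106, 86, 130, 137 and 95 tags, and carried no enriched H3K27Ac (11 to 24 tags).

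Cd80, on chromosome 16 (mm9, 38459013 to 38495821, forward strand), gained H3K27Ac over its start and over most of its locus. The start held 153, 155, 675, 787 and 594 H3K27Ac tags, with no difference between 0 and 3 h and a high level at the 3 later times. The log2 ratio was 2.14 (1.89 to 2.40) at 12 h, where 3.32% of starts were called higher, and 1.96 (1.70 to 2.22) at 48 h. From 12 to 48 h it was -0.18 (-0.35 to -0.02), so the whole rise fell between 3 and 12 h, the interval in which the H3K27Ac libraries differ at the heavy chain segment. H3K4Me1 at the start was 122, 205, 74, 12 and 8 tags, highest at 3 h and under the enrichment threshold from 24 h. Its ratio was -3.93 (-5.17 to -2.91) at 48 h and -3.21 (-4.47 to -2.16) from 12 to 48 h, called lower from both times (8.35% of starts from 12 h). Cd80 +3 kb, next to the start, changed alike in H3K4Me1, with 197, 228, 154, 62 and 49 tags. H3K27Me3 at the start was 6, 6, 18, 7 and 6 tags, below the genome mean at each time.

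The 300 bases before the Cd80 start are shown because this promoter had the largest H3K27Ac rise of the 5 (forward strand, mm9, chr16:38458713-38459012). They held 48 H3K27Ac tags at 48 h and 1 match to the AP-1 motif, which 6.97% of promoters hold. Beside them stand the 300 exon-free bases of Cd80 -15 kb with the most H3K27Ac at 48 h, 99 tags (forward strand, chr16:38443803-38444102), the centre of the strongest relative gain in the locus. They lie in no annotated gene and held no match to the 5 motifs, which says only that these letters are not in this window.
Cd80 promoter: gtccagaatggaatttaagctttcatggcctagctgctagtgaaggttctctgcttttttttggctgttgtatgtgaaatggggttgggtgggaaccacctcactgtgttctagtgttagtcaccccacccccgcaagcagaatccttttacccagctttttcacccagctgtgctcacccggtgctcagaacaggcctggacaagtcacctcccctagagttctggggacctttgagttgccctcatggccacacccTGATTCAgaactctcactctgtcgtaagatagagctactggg
Cd80 -15 kb: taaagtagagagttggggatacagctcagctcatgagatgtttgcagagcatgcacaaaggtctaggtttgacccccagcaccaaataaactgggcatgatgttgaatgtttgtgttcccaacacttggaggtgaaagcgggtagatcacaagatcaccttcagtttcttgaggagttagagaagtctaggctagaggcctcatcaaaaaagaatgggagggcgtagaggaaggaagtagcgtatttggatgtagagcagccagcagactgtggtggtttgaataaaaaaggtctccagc

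Of the 33 windows of the Cd80 locus, 23 were called higher in H3K27Ac at 48 h against 0 h and 1 was called lower, 69.7% and 3.03% of the locus. Of 494236 windows that lie within 30 kb of a protein-coding gene anywhere in the genome, 9.5% were called higher and 3.59% lower. Of these, 162772 held at least 20 tags in the 2 libraries together, as all 33 windows of this locus did. The shares near genes given throughout thus include many windows with too few tags for a call. Enriched windows went from 9 at 0 h and 8 at 3 h to 15, 18 and 25 at 12, 24 and 48 h, while the share of all windows near genes that were enriched in H3K27Ac went from 9.39% at 0 h to 14.1% at 48 h. The mean level over the locus was 4.15 times the genome mean at 0 h and 8.38 times at 48 h. From 12 to 48 h, 8 windows were higher and 1 was lower, each also called so from 0 h, where 5.14% of windows near genes were higher and 1.68% lower.

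The largest gains lay upstream. Cd80 -15 kb, which holds the start of Gm17497 and a non-coding exon part of Adprh, held 11, 27, 274, 498 and 452 H3K27Ac tags and 28, 29, 247, 338 and 323 H3K4Me1 tags. The intergenic window Cd80 -24 kb held 15, 22, 262, 465 and 517 H3K27Ac tags and 27, 78, 259, 329 and 248 H3K4Me1 tags. Both marks were called higher in both windows at 48 h, with H3K27Ac log2 ratios of 5.36 (4.51 to 6.37) and 5.11 (4.37 to 5.95) and H3K4Me1 log2 ratios of 3.53 (2.97 to 4.14) and 3.20 (2.62 to 3.83). From 12 to 48 h neither was called in H3K27Ac, where the tags went from 274 to 452 at Cd80 -15 kb and from 262 to 517 at Cd80 -24 kb. Cd80 -24 kb met the H3K4Me1 threshold at 0 h, with exactly the 27 tags required, and the H3K27Ac threshold from 12 h. The window with most H3K27Ac at 48 h, Cd80 -27 kb, is the start of Pla1a, which encodes a phosphatidylserine-specific phospholipase. It held 280, 182, 639, 911 and 823 H3K27Ac tags and 178, 237, 185, 52 and 44 H3K4Me1 tags, the same opposed pattern as the Cd80 start, and its H3K27Ac was not called from 12 h. Cd80 -21 kb and Cd80 -18 kb shared the next largest change in H3K27Ac, with 9 tags at 0 h and 65 at 48 h in each, and of these Cd80 -21 kb was also called higher from 12 h.

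Inside the gene the pattern was of opposite sign at 1 place. Cd80 +18 kb, in an intron, was at 0 h the window with most H3K27Ac between the start and the far end of the gene, with 412, 301, 312, 133 and 113 tags. It was the 1 window of the locus called lower, with a log2 ratio of -1.87 (-2.18 to -1.56), and it was also called lower from 12 h. Its H3K4Me1 was 114, 147, 131, 101 and 94 tags and gave no call at 48 h. The intronic windows Cd80 +6 kb, Cd80 +9 kb and Cd80 +12 kb were called higher in both marks, and Cd80 +9 kb, for example, held 14, 8, 24, 32 and 73 H3K27Ac tags and 24, 25, 90, 105 and 176 H3K4Me1 tags. The acetylated starts of the neighbouring genes Adprh and 4930455C21Rik gave no call, that of Adprh at Cd80 -6 kb with 470, 559, 565, 625 and 509 tags and the other at Cd80 +63 kb with 407, 488, 364, 344 and 270. H3K27Me3 was enriched in 0 windows at 0 and 3 h and in 1 at each later time.

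**Figure D2:**
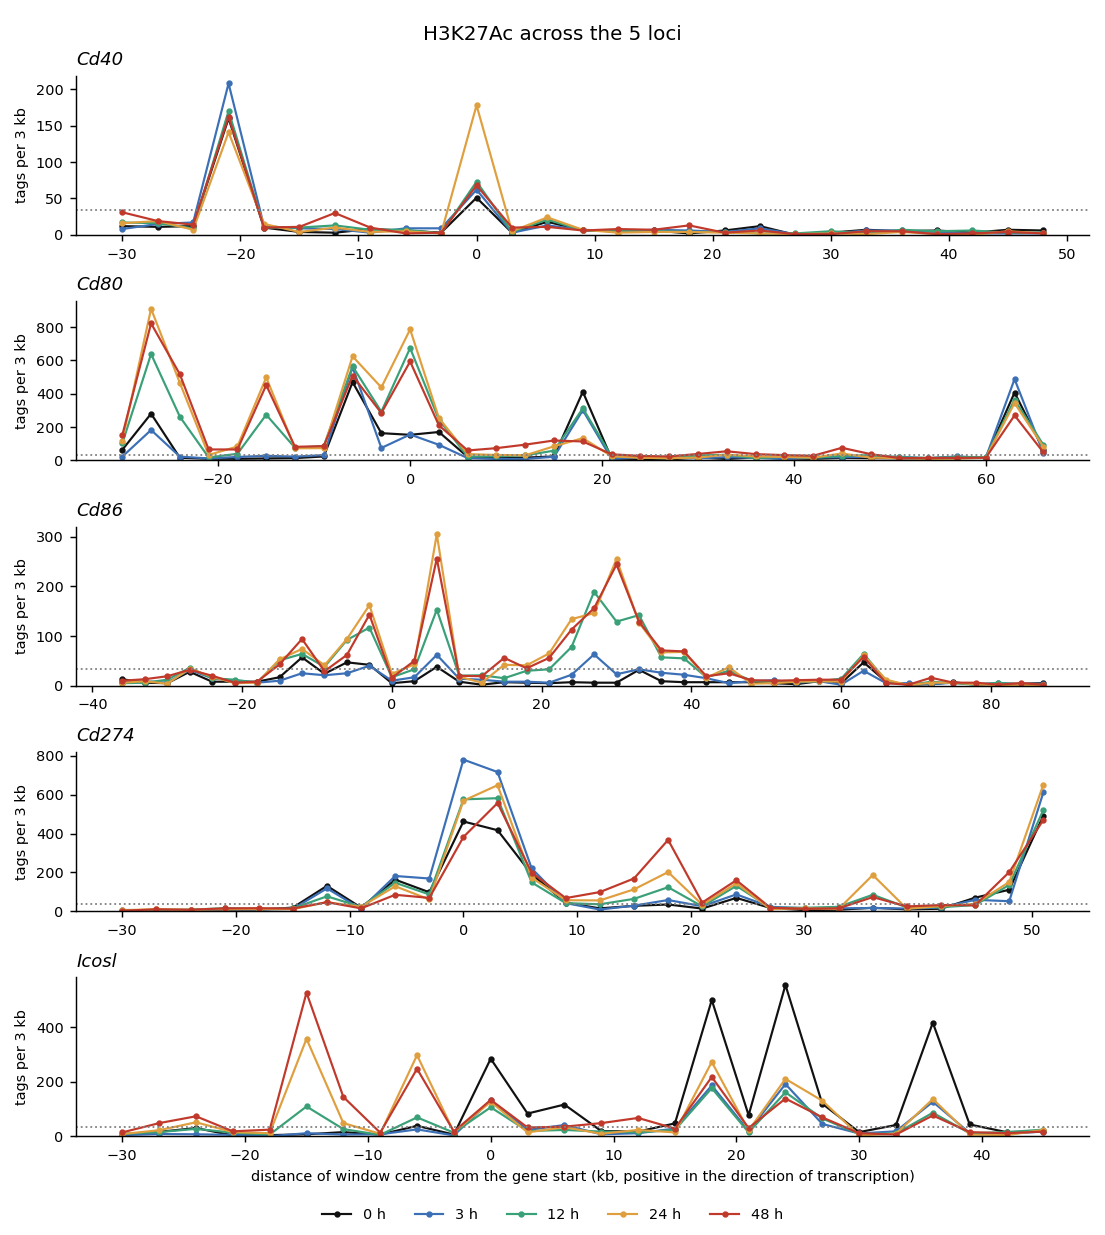
H3K27Ac tags per 3 kb window (thinned libraries) against the distance of the window's centre from the gene start in kb, 1 panel per locus with its own scale, 1 line per time, with the enrichment threshold of 34 tags dotted. Peaks left of the Cd80 start and inside Cd86 appear by 12 h, and the far end of Cd274 rises to 367 tags at 48 h. The highest downstream peaks of Icosl fall but stay above the threshold (555 tags at +24 kb at 0 h and 139 at 48 h). Other downstream windows fall under it (78 and 31 tags at +21 kb), and peaks rise upstream.

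Cd86, on chromosome 16 (mm9, 36603955 to 36666167, reverse strand), gained H3K4Me1 and H3K27Ac inside the gene. H3K27Me3 stayed enriched over most of the locus and fell at the outermost start. The annotation gives Cd86 protein-coding starts at 36666163, 36661538 and 36642891. The rule, which takes the transcript with the longest coding sequence, chose 36661538, and the outermost is described beside it. The chosen start held 4, 23, 41, 52 and 78 H3K4Me1 tags, higher at each later time than at the one before and with a log2 ratio of 4.29 (2.87 to 6.20) at 48 h. Its H3K27Ac was 5, 10, 17, 24 and 16 tags, never enriched, called higher at 24 h (2.26, 0.84 to 4.01) and not at 48 h (1.68, 0.16 to 3.48), where the higher library held fewer than 20 tags. The outermost start held 78, 56, 173, 216 and 164 H3K27Ac tags, enriched at each time and called higher at 48 h with 1.07 (0.67 to 1.48). From 12 to 48 h its ratio was -0.08 (-0.39 to 0.24), so that this rise also fell between 3 and 12 h. Its H3K4Me1 was 53, 81, 114, 110 and 91 tags, called higher at 12 h (1.10, 0.62 to 1.60, with 3.79% of starts so called) but not at 48 h (0.78, 0.28 to 1.30), and its H3K27Me3 fell from 43 to 24, 40, 26 and 17 tags, a ratio of -1.34 (-2.24 to -0.50) that was called lower. The H3K27Me3 counts at the chosen start, further inside the gene, were 49, 53, 77, 82 and 53, enriched throughout. The innermost start held 14, 13, 55, 123 and 119 H3K4Me1 tags and 9, 8, 36, 67 and 50 H3K27Ac tags.

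For Cd86 the 300 bases before the outermost annotated base are shown, as the start with the most H3K27Ac (reverse strand, mm9, chr16:36666168-36666467). With them are the 300 bases of the intronic window Cd86 +30 kb that held the most H3K27Ac at 48 h, 63 tags (reverse strand, chr16:36632625-36632924), the site with the largest relative gain. Neither held a match to the 5 motifs.
Cd86 promoter: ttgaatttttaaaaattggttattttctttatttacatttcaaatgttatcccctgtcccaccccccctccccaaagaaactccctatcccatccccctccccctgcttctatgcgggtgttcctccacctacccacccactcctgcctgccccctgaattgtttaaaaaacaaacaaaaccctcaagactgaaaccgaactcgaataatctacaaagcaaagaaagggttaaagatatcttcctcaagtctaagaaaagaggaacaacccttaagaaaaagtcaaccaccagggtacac
Cd86 +30 kb: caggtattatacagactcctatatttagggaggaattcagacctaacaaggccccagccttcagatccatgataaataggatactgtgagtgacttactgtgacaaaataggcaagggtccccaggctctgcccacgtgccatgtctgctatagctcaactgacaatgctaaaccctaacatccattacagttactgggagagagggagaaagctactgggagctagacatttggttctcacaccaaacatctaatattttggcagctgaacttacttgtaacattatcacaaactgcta

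In the 42 windows of the Cd86 locus, 16 were called higher in H3K27Ac at 48 h and 0 lower, and 23 were called higher in H3K4Me1 and 0 lower. These are 38.1% and 54.8% of the locus, beside 9.5% and 7.29% of all windows near genes. Cd86 +30 kb held 6, 23, 129, 255 and 244 H3K27Ac tags, a log2 ratio of 5.35 (4.20 to 6.81), and 9, 38, 95, 134 and 145 H3K4Me1 tags. Cd86 +27 kb held 6, 63, 189, 146 and 156 H3K27Ac tags, and was the 1 window of the 5 loci not enriched at 0 h that was enriched both at 3 h and at 48 h. Cd86 +24 kb held 7, 22, 78, 134 and 113. These intronic windows adjoin each other, and their highest H3K27Ac fell at 12 h in Cd86 +27 kb and at 24 h in Cd86 +30 kb and Cd86 +24 kb. Cd86 +33 kb, next to them, held 32, 33, 142, 127 and 129 tags. A separate intronic peak nearer the start, Cd86 +6 kb, had the most H3K27Ac at 48 h, with 38, 62, 153, 305 and 256 tags, and 66, 155, 196, 207 and 226 H3K4Me1 tags.

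Of 11 windows of the Cd86 locus that were enriched in H3K27Ac at 48 h and not at 0 h, 9 passed the H3K4Me1 threshold at an earlier time than the H3K27Ac threshold, 2 of the 11 already at 0 h, and 2 passed both at the same time. Of 31533 such windows near genes, H3K4Me1 came first in 52.7% and at the same time in 24.3%. The thresholds of these marks lie at different multiples of their means, so the order describes these thresholds. It also spans the step between 3 and 12 h, where the H3K27Ac libraries differ at the heavy chain segment, and the part of that difference was not tested. In H3K27Ac only Cd86 +15 kb was called higher from 12 to 48 h (15 to 56 tags), where 5.14% of windows near genes were. In H3K4Me1, 8 windows were called higher from 12 to 48 h, beside 5.06% near genes. Cd86 +15 kb had the largest H3K4Me1 ratio of the 5 loci, with 3, 25, 55, 106 and 138 tags and a log2 ratio of 5.52 (3.95 to 7.82).

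H3K27Me3 was enriched in 28, 24, 34, 32 and 30 of the 42 windows of the Cd86 locus, where 17.4% of windows near genes were at 0 h and 19.2% at 48 h. Of the 11 windows that gained H3K27Ac, 6 carried H3K27Me3 at 0 h. All 6 were still above the threshold at 48 h. Cd86 +24 kb, for example, held 50, 57, 56, 57 and 40 H3K27Me3 tags. At Cd86 +6 kb it was 39, 37, 36, 24 and 30, under the threshold from 24 h without a call. From 12 to 48 h, Cd86 -3 kb (58 to 28 tags) and Cd86 +33 kb (39 to 16) were called lower in H3K27Me3 and 0 windows higher, beside 1.08% and 1.12% near genes. At 48 h against 0 h, 3 windows were called higher in H3K27Me3 (7.14%) and 1 lower (2.38%), beside 1.44% and 1.66% near genes. The lower one was Cd86 -15 kb (28 to 14 tags), and of the higher ones Cd86 -27 kb went from 8 to 20. Beyond the gene's far end, Cd86 +81 kb rose from 24 to 51, 54, 53 and 74 tags, a log2 ratio of 1.62 (0.94 to 2.35), and Cd86 +87 kb from 18 to 32, 44, 58 and 52. Whether both marks lay on the same cells or on different ones cannot be told apart in these libraries.

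**Figure D3:**
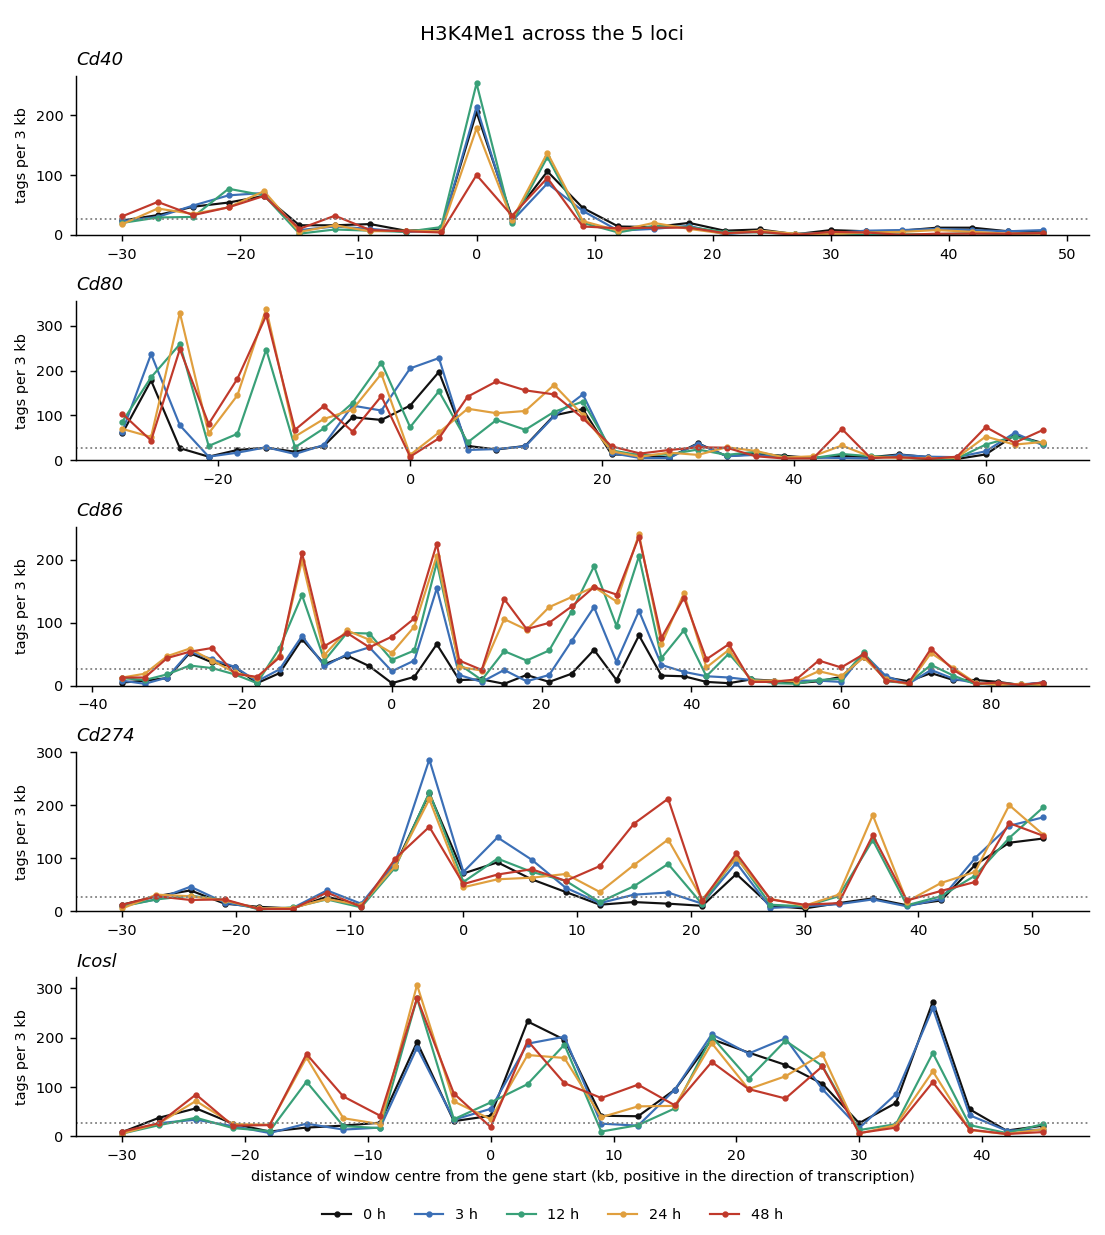
H3K4Me1 tags per 3 kb window (thinned libraries) against the distance of the window's centre from the gene start in kb, 1 panel per locus with its own scale, 1 line per time, with the enrichment threshold of 27 tags dotted. Cd40 has its highest peak at the start (205 tags at 0 h and 100 at 48 h), the Cd80 start falls to 8 tags while windows further out, such as Cd80 -15 kb (323 tags at 48 h), rise, and the Cd86 gene body fills from 3 h on.

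Cd274, on chromosome 19 (mm9, 29441945 to 29462585, forward strand), had an acetylated start at all times and gained at its far end. The start held 462, 781, 576, 569 and 382 H3K27Ac tags, highest at 3 h, with log2 ratios of 0.76 (0.59 to 0.93) at 3 h and -0.27 (-0.47 to -0.08) at 48 h. Neither was called. With scaling to bins enriched at all times the 48 h value was 0.14, so its sign depended on the scaling. H3K4Me1 was 71, 74, 55, 45 and 51 tags and H3K27Me3 was 7, 7, 6, 5 and 7, both without a call. An annotated start of the divergent gene 5033414D02Rik lies in the same window, and the tags of these 2 genes cannot be told apart. The adjoining intronic window Cd274 +3 kb stayed high as well, with 417, 717, 582, 649 and 557 tags.

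Inside the gene, Cd274 +18 kb, which holds the last coding exon, rose at every step, with 34, 57, 123, 201 and 367 H3K27Ac tags and 14, 35, 89, 135 and 212 H3K4Me1 tags. The log2 ratios at 48 h were 3.43 (2.92 to 3.98) and 3.92 (3.14 to 4.82). The windows before it changed alike: Cd274 +12 kb held 14, 8, 35, 55 and 98 H3K27Ac tags and Cd274 +15 kb held 27, 28, 63, 112 and 168. All 3 were also called higher from 12 to 48 h in both marks, with H3K27Ac log2 ratios of 1.58 (1.28 to 1.88) at Cd274 +18 kb, 1.49 (0.92 to 2.09) at Cd274 +12 kb and 1.42 (0.99 to 1.86) at Cd274 +15 kb. The sequence shown is the 300 exon-free bases of Cd274 +18 kb with the most H3K27Ac at 48 h, 94 tags (forward strand, mm9, chr19:29458989-29459288). It lies in the intron and held 1 match to the C/EBP motif, on the reverse strand. Of 255550 regions of this length taken at the middle of each 10 kb of the genome, 13.7% hold that motif.
Cd274 +18 kb: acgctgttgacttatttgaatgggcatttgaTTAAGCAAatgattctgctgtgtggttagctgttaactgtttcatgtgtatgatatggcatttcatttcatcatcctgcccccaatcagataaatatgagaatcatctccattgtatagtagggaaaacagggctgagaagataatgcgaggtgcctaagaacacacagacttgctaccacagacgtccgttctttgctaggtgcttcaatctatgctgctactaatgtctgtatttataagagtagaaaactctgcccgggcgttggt

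In the 28 windows of the Cd274 locus, 8 were called higher in H3K27Ac at 48 h (28.6%) and 2 lower (7.14%), beside 9.5% and 3.59% of windows near genes. Beside the 3 windows above, the higher ones lay between Cd274 +21 kb and Cd274 +42 kb, in the space towards Pdcd1lg2, the gene of the related ligand PD-L2, whose start is 43.5 kb from that of Cd274. Cd274 +36 kb, intergenic, held 17, 16, 84, 186 and 72 tags, highest at 24 h. The start of Pdcd1lg2 itself held 10, 16, 8, 30 and 32 tags, called higher (1.68, 0.62 to 2.87) and not enriched. An intronic window of Pdcd1lg2, Cd274 +51 kb, had the most H3K27Ac of the locus at 0 h, and held 492, 612, 521, 652 and 470 tags without a call. The 2 windows called lower were Cd274 -12 kb, in an intron of 5033414D02Rik, with 130, 117, 76, 46 and 46 tags, and Cd274 +45 kb with 69, 58, 31, 37 and 30. H3K27Me3 was enriched in 3 to 5 of the 28 windows, with the most at Cd274 -27 kb (95, 66, 86, 89 and 82 tags). From 12 h, 3 of the 8 higher windows were called, Cd274 +12 kb, Cd274 +15 kb and Cd274 +18 kb, and neither of the 2 lower ones was.

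Icosl, on chromosome 10 (mm9, 77532105 to 77546000, forward strand), had less H3K27Ac at its start and downstream of it by 3 h, and gained the mark later, mostly upstream. The start held 285, 132, 107, 127 and 134 tags. The fall was complete at 3 h, with a log2 ratio of -1.11 (-1.42 to -0.81), a call made for 1.48% of all starts in that direction, and of -1.09 (-1.40 to -0.79) at 48 h. From 12 to 48 h the ratio was 0.32 (-0.05 to 0.70). The 0 and 3 h libraries both hold tags at the heavy chain segment, and the part of a difference between libraries in this fall was not tested. The call was not made with scaling to bins enriched at all times (-0.98 at 3 h and -0.68 at 48 h) or in the central 1 kb (-0.92 and -0.83), and the direction held in both. H3K4Me1 at the start was 42, 56, 69, 35 and 19 tags, highest at 12 h and lower at 48 h (-1.14, -2.01 to -0.33). That call was also lost with scaling to background bins (-0.37) and with a 6 kb window (-0.22). H3K27Me3 was 13, 9, 19, 7 and 12 tags and not enriched.

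The sequences shown for Icosl are the 300 bases with the most H3K27Ac at 0 h in Icosl +24 kb, 138 tags, which is the downstream site that held the most and fell (forward strand, mm9, chr10:77555238-77555537), and the 300 exon-free bases with the most at 48 h in Icosl -15 kb, 107 tags, the site with the largest relative gain of the 5 loci (forward strand, chr10:77517094-77517393, in an intron of Dnmt3l). The falling site held 1 match to the NF-kB consensus, found in 2.12% of the genome regions. The rising site held 1 match to the PU.1 motif, found in 1.79%. The falling site had 55.7% G and C bases and the rising site 51.3%, where the genome regions had a median of 41.7%. Among promoters, with a median of 53.7%, these motifs were found in 4.99% and 2.57%.
Icosl +24 kb: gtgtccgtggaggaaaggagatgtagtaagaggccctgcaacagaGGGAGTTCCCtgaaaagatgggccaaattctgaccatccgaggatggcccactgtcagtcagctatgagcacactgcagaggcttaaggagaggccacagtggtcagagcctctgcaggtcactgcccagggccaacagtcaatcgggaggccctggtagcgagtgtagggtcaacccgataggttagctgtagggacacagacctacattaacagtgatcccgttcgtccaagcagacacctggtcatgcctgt
Icosl -15 kb: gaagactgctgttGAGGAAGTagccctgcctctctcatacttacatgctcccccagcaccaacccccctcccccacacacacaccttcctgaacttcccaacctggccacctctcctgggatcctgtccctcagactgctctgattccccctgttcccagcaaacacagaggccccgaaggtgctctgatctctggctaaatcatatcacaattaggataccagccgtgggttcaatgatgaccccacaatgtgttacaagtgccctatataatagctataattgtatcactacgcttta

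Of the 26 windows of the Icosl locus, 12 were called lower in H3K27Ac at 3 h and 0 higher, where 2.32% of windows near genes were lower and 2.71% higher. At 48 h, 9 were lower (34.6%) and 8 higher (30.8%), beside 3.59% and 9.5% near genes. The 9 lower windows were the start and 8 downstream of it, and none of them was called lower from 12 h. Icosl +21 kb, one of them, held 78 tags at 0 h, 15 at 12 h and 31 at 48 h and was called higher from 12 h. Icosl +24 kb held 555, 192, 162, 211 and 139 tags, Icosl +18 kb held 500, 187, 177, 273 and 218, and Icosl +36 kb held 417, 127, 87, 137 and 77, and their log2 ratios at 48 h were -2.00 (-2.28 to -1.73), -1.20 (-1.43 to -0.97) and -2.44 (-2.81 to -2.08). No annotated gene lies over these windows. The first step took place between 0 and 3 h in all 3. Their H3K4Me1 moved later and less: at Icosl +24 kb it was 145, 199, 194, 122 and 77 tags, and at Icosl +36 kb 273, 260, 169, 132 and 110. Of 40 windows of all loci that were enriched in H3K27Ac at 0 h, 6 no longer were at 48 h, and 5 of the 6 were in the Icosl locus. Near genes, 46412 windows were enriched at 0 h and 69682 at 48 h. Of the latter, 31533 were not enriched at 0 h, so enriched windows were lost near genes in general too. Icosl +3 kb, Icosl +21 kb and Icosl +15 kb held 33, 31 and 29 tags at 48 h, not far under the threshold of 34. Icosl +15 kb was not called lower.

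Of the 8 windows called higher, 6 lay upstream and 2 inside Icosl. The upstream gains lay around Dnmt3l, which encodes a catalytically inactive cofactor of the DNA methyltransferases. Icosl -15 kb held 8, 12, 110, 358 and 527 H3K27Ac tags, a log2 ratio of 6.04 (5.05 to 7.26). Its H3K4Me1 was 18, 26, 111, 160 and 167 tags, and its H3K27Me3 was 58, 57, 55, 47 and 24, with a ratio of -1.27 (-2.02 to -0.56) that was called lower. Icosl -6 kb held 39, 26, 70, 298 and 248 H3K27Ac tags and was strong in H3K4Me1 from the outset, with 191, 180, 280, 307 and 280 tags. There too H3K27Me3 went down, with 41, 29, 25, 19 and 16 tags. Icosl -12 kb held 16, 7, 27, 49 and 145 H3K27Ac tags. Inside the gene, Icosl +9 kb held 20, 8, 18, 10 and 49 tags and Icosl +12 kb held 18, 12, 15, 24 and 68, with log2 ratios of 1.29 (0.52 to 2.12) and 1.92 (1.15 to 2.76), and both were enriched at 48 h alone. All 8 windows called higher from 0 h were also called higher from 12 h. Annotated starts of Dnmt3l lie in Icosl -15 kb itself and in Icosl -18 kb, Icosl -21 kb and Icosl -27 kb. Icosl -27 kb, one of the 6 upstream windows called higher, also holds a start of Aire.

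**Figure D4:**
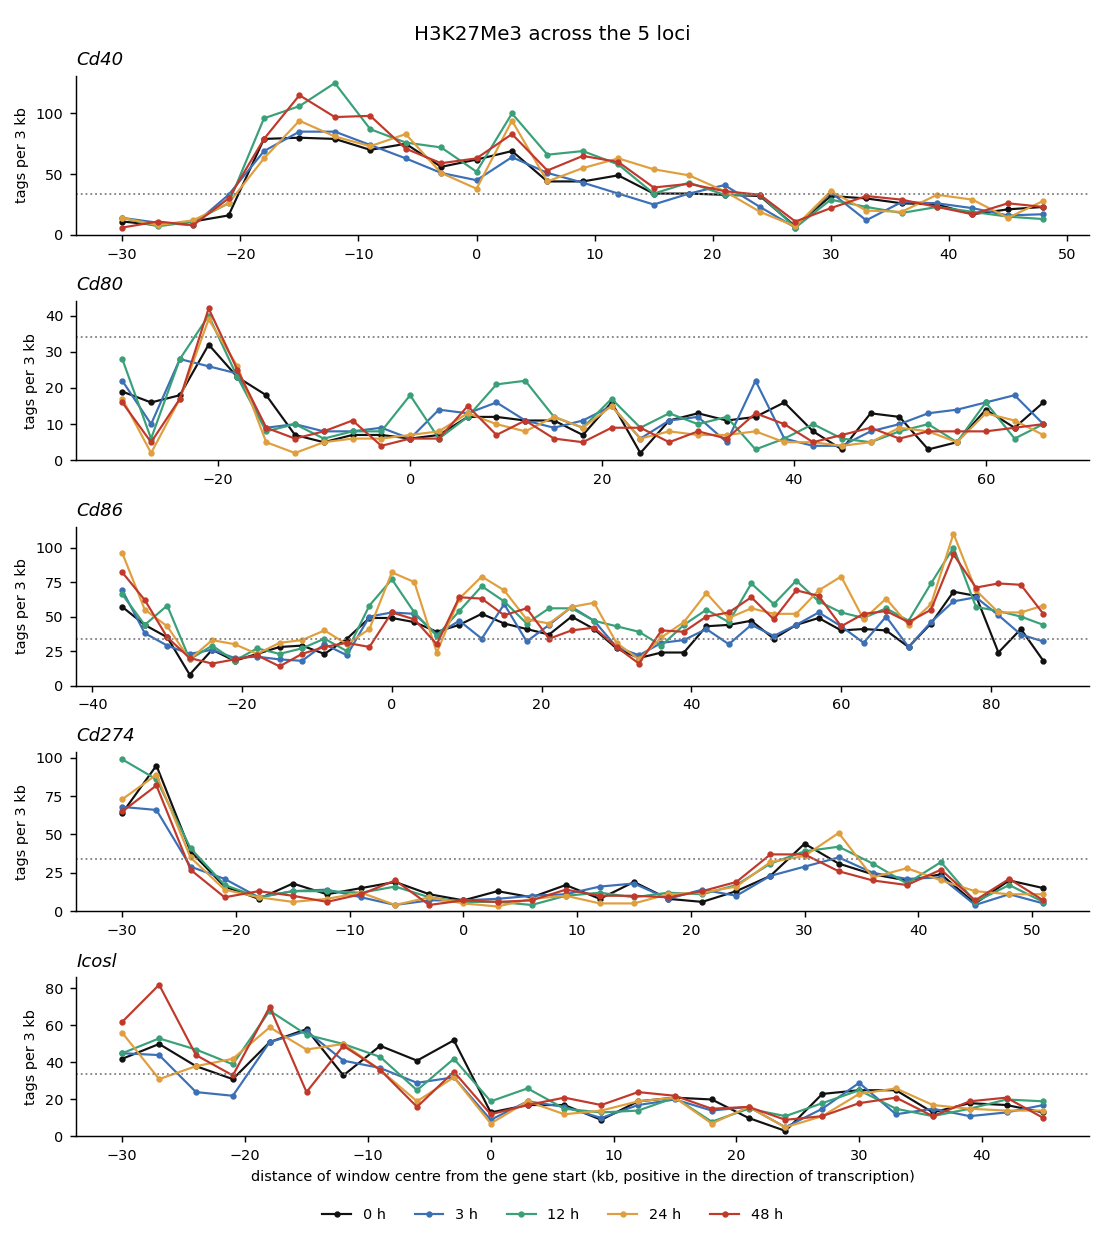
H3K27Me3 tags per 3 kb window (thinned libraries) against the distance of the window's centre from the gene start in kb, 1 panel per locus with its own scale, 1 line per time, with the enrichment threshold of 34 tags dotted. Cd40 and Cd86 lie in broad H3K27Me3 at all times, Cd80 has almost none, and at Icosl -15 kb the mark falls from 58 to 24 tags.

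Taking the loci side by side, 57 of 156 windows (36.5%) were called higher in H3K27Ac at 48 h against 0 h and 12 (7.69%) lower, beside 9.5% and 3.59% of windows near genes, with a median log2 ratio of 1.28 beside 0.45. The medians are over windows with at least 20 tags in the 2 libraries together, 118 of the 156 and 162772 of the 494236 near genes. The shares called are over all windows, and those near genes more often held too few tags for a call. From 12 h, 22 windows were higher and 1 lower, beside 5.14% and 1.68% near genes, and 21 of the 22 were also higher from 0 h. In H3K4Me1, 48 windows were higher (30.8%) and 11 lower (7.05%), beside 7.29% and 4.12%. With scaling to background bins, 77 were higher and 6 lower in H3K4Me1, and with scaling to bins enriched at all times 7 were lower in H3K27Ac. In H3K27Me3, 3 were higher and 4 lower, beside 1.44% and 1.66%, and with scaling to background bins 5 were higher and 2 lower. The 4 lower ones became 2 with another random seed or without thinning and 11 with a minimum of 10 tags, so this count was not stable. The 57 higher windows were spread unevenly, with 23 at Cd80, 16 at Cd86, 8 at Cd274, 8 at Icosl and 2 at Cd40. The windows of 1 locus adjoin each other and are not independent.

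Of 37 windows enriched in H3K27Ac at 48 h and not at 0 h, 13 were enriched in H3K4Me1 at 0 h and 24 were not, where 35.9% of the windows near genes that gained H3K27Ac in this way were enriched in H3K4Me1 at 0 h. Some of the 13 were near the threshold of 27 tags, such as Cd80 -24 kb (27) and Cd80 -15 kb (28). In background bins the 0 h H3K4Me1 library held 1.27 to 1.75 times the tags of the later ones, and the part of this in the 13 was not tested. H3K4Me1 passed its threshold at an earlier time than H3K27Ac in 23, at the same time in 10, and later or never in 4, beside 52.7%, 24.3% and 23% of those near genes. H3K27Me3 was present at 0 h in 9 of the 37 windows, 6 at Cd86 and 3 at Icosl, and in 10.6% of those near genes. H3K27Ac first passed its threshold at 3 h in 1 window, at 12 h in 16, at 24 h in 9 and at 48 h in 11. The 0 and 3 h H3K27Ac libraries differ from the later ones at the heavy chain segment. The part of that difference in these orders and first times was not tested. At the Cd80 start H3K27Ac rose and H3K4Me1 fell.

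**Figure D5:**
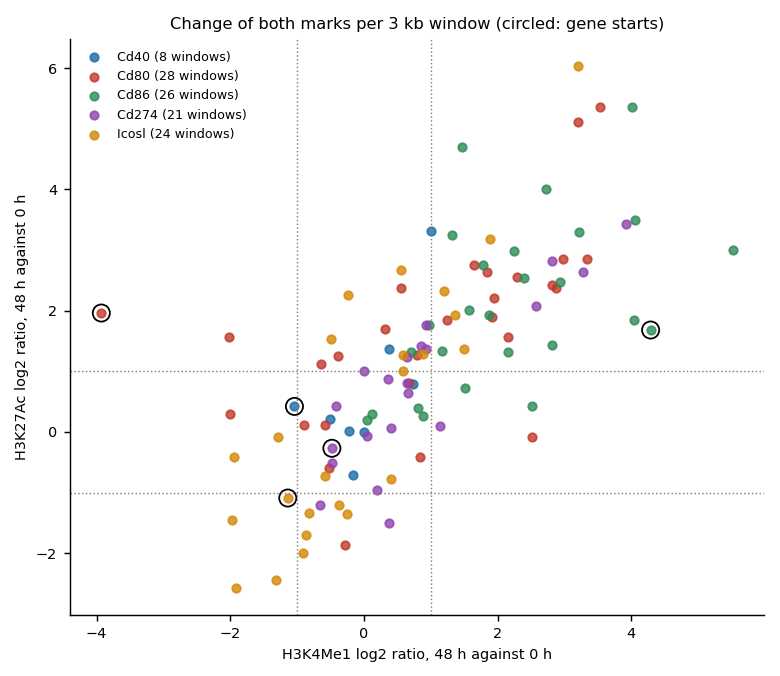
Log2 ratio of H3K27Ac against log2 ratio of H3K4Me1 at 48 h over 0 h for the 107 windows of the 5 loci with at least 20 tags of each mark in the 2 libraries together, coloured by locus, with gene starts circled and 2-fold changes dotted. The circled point at upper left is the Cd80 start (1.96 in H3K27Ac and -3.93 in H3K4Me1), and the points below -1 in both marks are windows of Icosl.

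Beyond the 5 genes, the starts of 16 other costimulatory and coinhibitory surface genes gave 3 higher and 2 lower calls in H3K27Ac at 48 h and 11 without a call, where 4.72% of all starts were called higher and 8.2% lower. The median log2 ratio of the 16 was 0.07, with counts as low as 1 tag included. Over all starts with at least 20 tags in the 2 libraries together it was -0.21. Tnfsf14, which encodes the ligand LIGHT, held 7, 11, 116, 641 and 567 tags, a ratio of 6.34 (5.29 to 7.66), and was the only one of the 16 to go from not enriched to enriched. 4632428N05Rik, which encodes the inhibitory protein VISTA, held 116, 355, 630, 898 and 563 (2.28, 1.99 to 2.58), and Pdcd1lg2 was described above. The lower ones were Btla, an inhibitory receptor of lymphocytes, with 90, 108, 31, 33 and 9 tags (-3.32, -4.50 to -2.33), and Lgals9, which encodes galectin-9, with 1159, 974, 829, 771 and 425 (-1.45, -1.61 to -1.29). From 12 to 48 h Tnfsf14 and Pdcd1lg2 were called higher and Btla lower, and 4632428N05Rik and Lgals9 were not called, where 2.16% of all starts were higher and 3.55% lower. Of 10 genes of CD40 signalling, the TRAF adaptors, their cIAP partners and the non-canonical NF-kB arm, all were enriched in H3K27Ac at 0 and at 48 h. Relb alone was called (159, 215, 218, 274 and 320 tags, 1.01, 0.73 to 1.29), and their median ratio was -0.07. From 12 h none of the 10 was called, Relb included (0.55, 0.30 to 0.81).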

How the data were processed

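Per the labels and the study's methods, the authors aligned the ChIP-seq reads to mm9 with Eland or Bowtie without mismatches, removed identical and non-unique tags, and deposited each library as a list of 36 bp tag positions without strand. The deposited files hold no counts. Lines without a position at the end of 3 files were dropped. With Python 3.11.15, NumPy 2.4.6 and SciPy 1.17.1, 1 tag was kept per position, placed at its middle, limited to chromosomes 1 to 19 and X, and each library was thinned by a seeded draw to the size of the mark's smallest one. Starts, exons and sequences came from the mm9 (NCBIM37) genome and GENCODE annotation. Tags carry exact Poisson intervals and log2 ratios exact conditional (Clopper-Pearson) intervals. The call rule was run on simulated Poisson counts with planted changes. These held no other difference between libraries, so they cannot show how the rule behaves where libraries differ in background or cells. The floor for an empty library was 3 tags. The duplicate rule differed between libraries: positions with over 2 tags occur only in H3K4Me1 at 0 h (13096) and 48 h (6760).

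Named windows were, per locus, up to 3 windows outside the start with the largest called H3K27Ac change at 48 h and the one with the most H3K27Ac then, and named genes of a list were those called and the members behind a count of 5 or fewer. Other windows were chosen after their values were seen, as was the degenerate form of the NF-kB consensus. The genes, lists, heavy chain segment and markers were chosen with earlier results of these data known. Depth is the number of tags given above. Alternatives covered scaling, thinning, window size and place, start choice, fold, tag minimum, enrichment threshold and the 12 h baseline.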

Additional observations from a re-analysis of the deposited data

How the results depend on the processing

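No paired analysis was possible because no mark had more than 1 library at a time, and for the same reason no library could be left out. Of 919 values recomputed under the alternatives, 766 stayed within their counting interval or within 1.5 times the count, 151 moved and 2 called ratios changed sign. The 2 were the H3K27Ac ratios of Cd80 (-0.18) and Icosl (0.32) with 12 h as the baseline, an alternative chosen after seeing the data. With it the ratios of Cd40 (-0.10) and Cd86 (-0.09), not called from 0 h, also changed sign, Cd274 was at -0.59, and 22 locus windows were higher and 1 lower. Scaling to bins enriched at all 5 times gave H3K27Ac ratios of 2.37 for Cd80, 0.14 for Cd274 and -0.68 for Icosl, 2 members higher and 0 lower, and 7 locus windows lower in H3K27Ac. Scaling to background bins left 1 member lower in H3K4Me1, with 77 locus windows higher and 6 lower in that mark, and 5 higher and 2 lower in H3K27Me3. In a 1 kb start window the H3K27Ac ratio was 1.04 for Cd40 and -0.72 for Cd274, with 2 members higher and 0 lower. In a 6 kb window it was 1.46 for Cd80 and 0.06 for Cd274, with 2 members higher, and 1 was lower in H3K4Me1. The Cd274 ratio, not called from 0 h, thus changed sign with this window and with scaling to bins enriched at all 5 times. With the outermost start, 0 members were higher in H3K4Me1, 2 higher in H3K27Ac and 1 lower in H3K27Me3, since Cd86 changed its window. A 3-fold threshold left 1 member lower in H3K4Me1 and 0 in H3K27Ac, and a minimum of 10 tags gave 2 higher in H3K27Ac. The 4 locus windows lower in H3K27Me3 became 2 without thinning, with another random seed, with windows shifted by 1.5 kb and with a minimum of 40 tags, and 11 with a minimum of 10. Apart from the construction of the alternative, the cause was not tested. Where both libraries held fewer than 20 tags, the main rule allowed no call. This holds for H3K27Ac at the Cd86 start at 48 h, whose counting interval was 0.16 to 3.48.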

Other observations

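The genes of the T cell partners of these molecules gave 1 call, lower, among 5 starts in H3K27Ac at 48 h, where 8.2% of all starts were called lower. The median log2 ratio of the 5, -0.74, was that of Ctla4, with 5 tags at 0 h and 3 at 48 h. The median of -0.21 over all starts takes only those with at least 20 tags in the 2 libraries together. Pdcd1, which encodes PD-1, held 518, 203, 428, 519 and 254 H3K27Ac tags at 0, 3, 12, 24 and 48 h (-1.03, -1.25 to -0.81; -0.75, -0.98 to -0.53, and not called, from 12 h), and Cd28 held 413, 212, 304, 356 and 220 without a call. Both were enriched in H3K27Ac at 0 and at 48 h in these pre-B and macrophage-like cells. Ctla4, Icos and Cd40lg held 1 to 14 H3K27Ac tags in each library and were not enriched in that mark.

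The protein-coding starts most like each member were sought by the Euclidean distance over the 15 libraries, on log2 levels. Genes with a start within 30 kb of the member's were left out. Cd274 had the closest, Manf (0.729), Psma7 (0.814) and Snrnp70 (0.816), where the median distance to all starts was 11.5. For Cd40 they were Crybb1 (1.59), Pde4a (2.12) and Ccr10 (2.14), and for Cd86, at the rule's start, Gm9999 (1.69), F830045P16Rik (1.71) and Lyve1 (1.73). For Icosl they were D18Ertd653e (1.07), Dynll2 (1.24) and Bbs4 (1.4). Among the starts searched, Cd80 had none nearer than Shisa5 (2.95), followed by Usp32 (3.03) and Serf2 (3.06), with a median over all starts of 11.2. Its neighbour Pla1a, 25.8 kb upstream, was among those left out. The 15 values share libraries, so these distances are a description.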
